A study of Mus musculus with 40 samples.

Results

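A set of 10 genes of muscle NAD metabolism were examined: Nmrk2, Nmrk1, Nampt, Nmnat1, Nmnat3, Nadsyn1, Nadk, Nadk2, Sirt1 and Sirt3. They were taken by name from a table of 12573 genes measured in the gastrocnemius, a mixed-fibre muscle of the calf, and all 10 were in it. The muscle came from 40 female C57BL/6J mice in 5 groups of 8, each mouse giving 1 library. PBS mice received saline at 8 weeks of age, never bore a tumor and were 12 weeks old at tissue collection. The other mice received Lewis lung carcinoma (LLC) cells, a transplantable mouse lung tumor line, at the same age. The 1wk mice were 9 weeks old and the 2wk mice 10 weeks old, and LT and HT mice were 11 to 12 weeks old. Tumors weighed up to 1.2 g in LT (low tumor) mice and 2 g or more in HT (high tumor) mice, and the sources used here do not give the week at which each of these mice was collected. The 1wk and 2wk mice were younger than the PBS mice, so age and tumor cannot be told apart in those comparisons.

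NAD is the coenzyme of cellular redox reactions and is also consumed by sirtuins, poly-ADP-ribose polymerases (PARPs) and the glycohydrolase CD38, so muscle must rebuild it. The main route salvages nicotinamide through NAMPT, which makes nicotinamide mononucleotide, and a parallel route makes the same mononucleotide from nicotinamide riboside through the kinases NMRK1 and NMRK2. NMNAT enzymes turn the mononucleotide into NAD, NADSYN1 completes the route from nicotinic acid, and NAD kinases turn NAD into NADP. Nmrk2 is expressed mainly in skeletal muscle and heart, is also known as a muscle integrin binding protein, and is known to respond to energy stress through AMPK and PPAR alpha.

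Values are the authors' normalized read counts, that is, gene counts divided by a size factor of the library. Depth differed along the groups, with an estimated 15.55 to 28.6 M reads in PBS, 1wk and 2wk libraries and 3.48 to 7.73 M in LT and HT libraries. These ranges do not meet. Depth, and anything in sequencing that went with it, therefore cannot be told apart from tumor when LT or HT is compared to PBS, 1wk or 2wk. All 12 defining markers of skeletal muscle were in the table, and their summed value was 1.58 to 2.64 M in PBS and 1.34 to 2.29 M in HT. Compared to PBS, 4 of these 12 were called lower in HT and 0 higher, with a median log2 fold change of -0.28. Of 11 fast fibre markers 5 were called lower and 0 higher. Of all genes 16.5% were called lower in HT and 16.5% higher. The summed neutrophil markers, 5 of 13 in the table, were 27.3 to 56 in PBS and 632 to 2602 in HT, and erythroid markers, 5 of 8 in the table, were 6110.4 to 24175 in PBS and 28521 to 100480 in HT. Endothelial markers, 10 of 10 in the table, summed to 2674 to 4410.5 in PBS and 4304 to 5186.5 in HT, with 7 called higher in HT, against 16.5% of all genes. Adipocyte markers, 6 of 6 in the table, summed to 1685 to 3837.5 in PBS and 3628.5 to 6159 in HT, with 3 called higher, against the same 16.5%. Of 7 fibroblast markers 2 were called lower in HT and 0 higher, against 16.5% of all genes called lower. Of 11 lymphocyte markers 0 were in the table. The part of these cells in the results below was not tested. In whole muscle, fewer cells of a type and less RNA per cell cannot be told apart.

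Nmrk2 lies on the minus strand of chromosome 10 (GRCm39, chr10:81033854-81037888) and has 7 exons in a transcript of 1857 bases. The 250 bases before its start site are shown beside those of Nmrk1, since both kinases act on the same substrate and their levels parted in these mice. They are RefSeq sequences of build GRCm38.p6, written 5′ to 3′ on the strand of the gene, from chr10:81202038-81202287 (minus strand) for Nmrk2 and chr19:18631766-18632015 (plus strand) for Nmrk1. Capitals mark matches to CANNTG, the E-box bound by myogenic factors, and to TATAAA.
Nmrk2: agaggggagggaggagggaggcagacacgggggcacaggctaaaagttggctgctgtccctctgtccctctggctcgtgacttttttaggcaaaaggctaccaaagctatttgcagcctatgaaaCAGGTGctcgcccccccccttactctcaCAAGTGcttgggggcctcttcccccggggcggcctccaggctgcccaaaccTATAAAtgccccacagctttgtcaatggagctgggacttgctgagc
Nmrk1: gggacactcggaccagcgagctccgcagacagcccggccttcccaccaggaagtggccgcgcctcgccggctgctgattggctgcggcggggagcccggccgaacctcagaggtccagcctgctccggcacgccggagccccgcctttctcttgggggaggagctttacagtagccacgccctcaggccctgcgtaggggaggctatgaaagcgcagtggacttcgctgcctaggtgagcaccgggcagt
The Nmrk2 stretch held 2 E-boxes, starting at -125 and -97 from the start site, and 1 TATAAA starting at -46. The Nmrk1 stretch held 0 of either. Both motifs were searched on both strands in windows that ran from 250 bases before to 50 after each start site. CANNTG occurred in 72.3% and TATAAA in 13.6% of 32544 such windows. An E-box of the form CACGTG (7.17% of windows), a CArG box (1.64%), a MEF2 site (3.16%), the TEAD motif CATTCCT (5.38%) and the consensus PPAR response element (0.0399%) had no match in either window. Of the 9 genes with an entry, Nmrk2 was the only 1 with TATAAA. These matches describe letters and not binding.

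Nmrk2 fell in LT and HT mice and had the largest log2 fold change of the 10 genes in both. Its lowest, median and highest values were 649, 1642 and 2265 in PBS mice. In 1wk mice they were 717, 995 and 1909.5, and in 2wk mice 383, 589 and 1035. Every 2wk mouse lay under the PBS median, and the PBS group reached down into the 2wk range only through mouse C11 at 649, since the next PBS mouse was at 1274. LT mice gave 132, 421 and 602, and HT mice 55.2, 337 and 430.2. All LT and all HT mice lay under the lowest PBS mouse, so neither group overlapped with PBS.

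**Figure D1:**
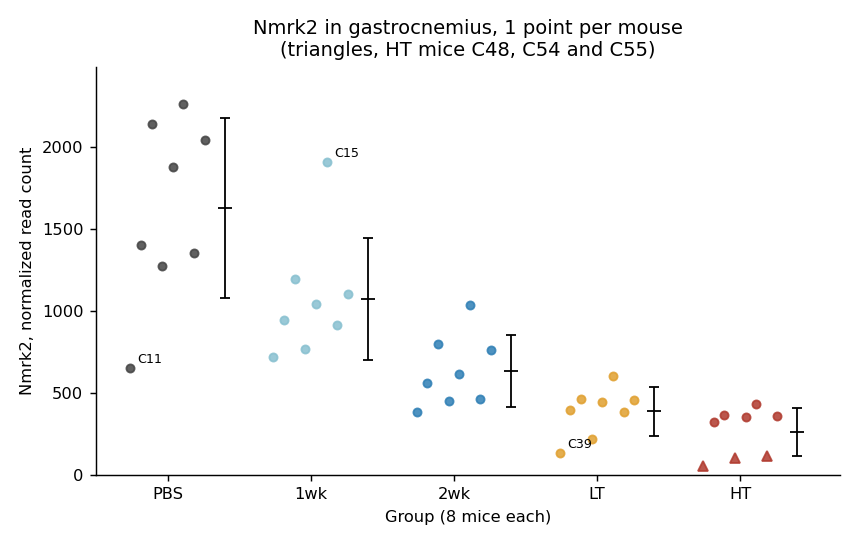
Normalized read count of Nmrk2 (linear axis from 0) in each of 40 mice by group, with the mean and SD of 8 mice drawn beside the points. The LT and HT points all lie under PBS mouse C11 at 649, and 3 HT mice drawn as triangles (C48, C54, C55) lie between 55.2 and 114.

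Compared to PBS, the log2 fold change of Nmrk2 was -0.57 (SE 0.33, adjusted p = 0.528) at 1wk and -1.34 (SE 0.33, adjusted p = 0.128) at 2wk by limma, and neither passed. At 2wk 0 of the 10 genes was called, against 0.0795% of all genes, and 1 of the 10 and 4.66% of all genes had an unadjusted p under 0.05. Nmrk2 ranked 22 of 12573 by p in that comparison, and an exact permutation test of Nmrk2 alone gave p = 0.000622 (two-sided, n = 8 against 8, 0.00104 adjusted over 10 group pairs). Leaving out PBS mouse C11 gave -1.51 with a limma adjusted p of 0.0414, which passes, and 0.143% of all genes were then called. At 1wk the same exact permutation test gave p = 0.0497 and 0.0552 adjusted over group pairs. Neither permutation result was adjusted over the 12573 genes.

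In LT mice Nmrk2 passed the test (adjusted p = 0.000604, lower in 8 of 8 mice) and had 0.232 times the PBS level, with a 95% interval of the log2 fold change from -2.78 to -1.43. It was the only 1 of the 10 genes called in LT, where 0.636% of all genes were called and 0.231% did not overlap between the groups, and it ranked 3 of 12573 by p. In HT mice it was at 0.14 times the PBS level (adjusted p = 7.78e-08, interval -3.51 to -2.17) and ranked 6 of 12573 from the lowest log2 fold change. Thinning every library to the reads of the smallest gave -2.92 for HT.

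The level fell in the order PBS, 1wk, 2wk, LT, HT, and no pair of neighbours in that order passed the limma test. The limma adjusted p was 0.582 between 1wk and 2wk, 0.651 between 2wk and LT and 0.108 between LT and HT. Exact permutation tests of Nmrk2 alone were adjusted over 10 group pairs and not over all genes. These permutation p-values were 0.00689 between 1wk and 2wk, 0.022 between 2wk and LT and 0.138 between LT and HT. The difference between LT and HT passed neither test. Nmrk2 was chosen with earlier results of these data known, so no step between neighbours is taken as shown. Groups that were not neighbours differed more widely, with a log2 fold change of -1.54 for LT against 1wk (adjusted p = 0.0393, 0.151% of all genes called, lost on leaving out any 1 of 9 of the 16 mice and after thinning, at adjusted p = 0.0524) and -2.27 for HT against 1wk (adjusted p = 8.43e-06).

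The HT mice fell into a lower and a higher set for Nmrk2. Mice C48, C54 and C55 had 114, 102 and 55.2, while the other 5 lay between 320 and 430.2, inside the LT range. Without these 3 mice, a choice made after seeing the data, Nmrk2 was lower in HT than in PBS (log2 fold change -2.07, adjusted p = 4.29e-06) and the difference from LT was 0.04. Leaving out the lowest HT values raises HT by construction, while LT kept its low mice C39 at 132 and C42 at 216. No conclusion is therefore drawn from the 0.04. Mouse C55 had an estimated 19.8 reads of Nmrk2, the fewest of all mice. In C48, C54 and C55 the neutrophil sums were 934, 1850 and 2602 and the muscle marker sums 1.60, 1.76 and 1.34 M. Their slow fibre marker sums were 5310.4, 4803 and 14058, against an HT median of 21580. The part of these in the lower Nmrk2 values was not tested.

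Atcayos, a long non-coding RNA on the opposite strand, covers the whole Nmrk2 gene and shares 531 of its 2203 exon bases. Reads were made with a stranded kit, but whether strand was used in counting is not stated, so reads of the overlap cannot be assigned with certainty. Atcayos averaged 200.1 ± 44.4 in PBS mice (SD, n = 8 in each group), and 190 ± 49.2, 219 ± 36.1, 189 ± 45.8 and 126 ± 67.4 in the 1wk, 2wk, LT and HT mice. It was called lower in HT (log2 fold change -0.83, adjusted p = 0.0047) and not in LT (-0.10, adjusted p = 0.91), while Nmrk2 was called lower in both. LT and HT were grouped by tumor mass and are not successive times. The deviations of both from their group means had a Pearson r of 0.561 over 40 mice, a description of points that share libraries and may share reads.

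Nmrk1, the kinase of most other tissues, did not share this course. Its mean was 70.9 ± 9.5 in PBS mice (SD, n = 8 in each group), and 57.2 ± 5.8, 63.2 ± 6.9, 71.6 ± 12.6 and 61.9 ± 11.8 in the 1wk, 2wk, LT and HT mice, and the groups overlapped in every comparison with PBS. The log2 fold change was 0.00 in LT (adjusted p = 0.993) and -0.21 in HT (adjusted p = 0.176), with an interval in HT from -0.44 to 0.03. Per base of transcript Nmrk2 stood 27.7 ± 11.8 times above Nmrk1 in PBS mice and 4.75 ± 2.51 times in HT mice.

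Nampt, the rate-limiting enzyme of nicotinamide salvage, was not called in any comparison with PBS. Its lowest, median and highest values were 2052, 2368 and 2750.2 in PBS and 2179, 2702 and 3651 in HT, with C55 the highest HT mouse. The log2 fold change in HT was 0.19 (adjusted p = 0.142, interval -0.01 to 0.40). It became 0.27 with an adjusted p of 0.0428 when libraries were scaled to the same total.

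Per kilobase of transcript Nmrk2 was the highest of the 10 genes in PBS mice at 876 ± 296, ahead of Nampt at 509 ± 43.8. In 2wk mice Nampt stood first at 571 and Nmrk2 second at 341. In HT mice Nmrk2 was at 141, behind Nampt at 587 and Nadk2 at 175. The ratio of Nmrk2 to Nampt on this scale was 1.76 ± 0.674 in PBS mice (SD, n = 8), 1.27, 0.595 and 0.388 in 1wk, 2wk and LT mice, and 0.257 ± 0.158 in HT mice. Between PBS and HT the ratio did not overlap, with a lowest PBS value of 0.656 and a highest HT value of 0.45.

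**Figure D2:**
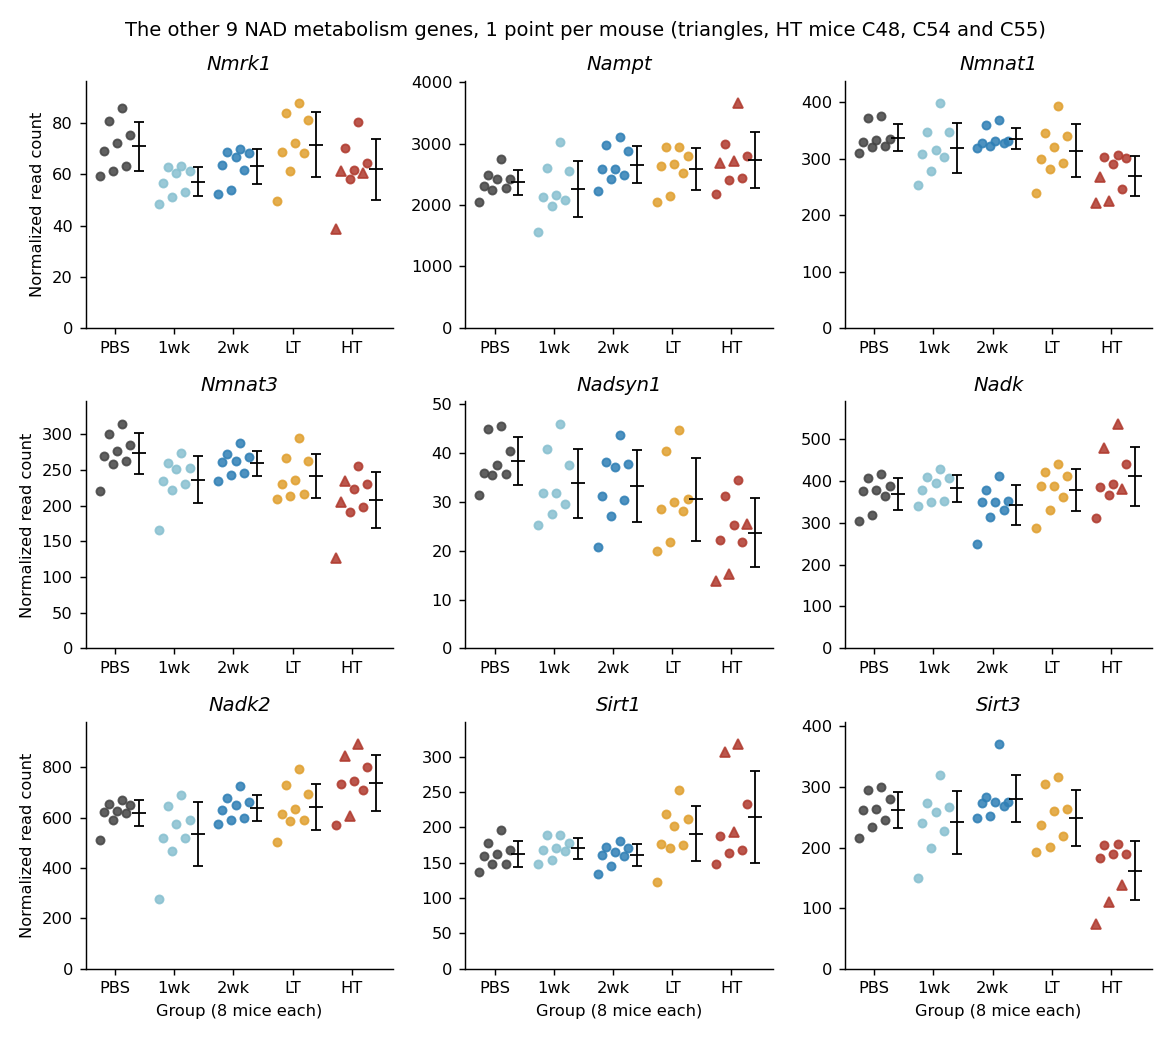
Normalized read counts of the other 9 genes (linear axes from 0) in each of 40 mice by group, with mean and SD of 8 mice. Sirt3 and Nmnat1 lie lower in all HT mice than in any PBS mouse, and the triangles (C48, C54, C55) hold the lowest Sirt3 values, down to 74.6.

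In HT mice 6 of the 10 genes were called, 5 lower and 1 higher, against 16.5% of all genes called lower and 16.5% called higher. Their median log2 fold change was -0.27, against 0.00 over all genes. Nmrk2, Nmnat1 and Sirt3 did not overlap with PBS, as did 3.47% of all genes. At 1wk 0 of the 10 was called, with 0.525% of all genes called and 3 of the 10 and 11.6% of all genes had an unadjusted p under 0.05. Against the other tumor-bearing groups, 6 of the 10 were called in HT against 1wk (29.2% of all genes) and 7 in HT against 2wk (28.3% of all genes). Without C48, C54 and C55, 4 of the 10 were called in HT against PBS (Nmrk2, Nmnat3, Nadsyn1 and Sirt3), and 16.1% of all genes. Against 1wk 2 of the 10 were then called (Nmrk2 and Nadk2, 9.85% of all genes), and against 2wk 1 (Sirt3, 6.7% of all genes).

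**Figure D3:**
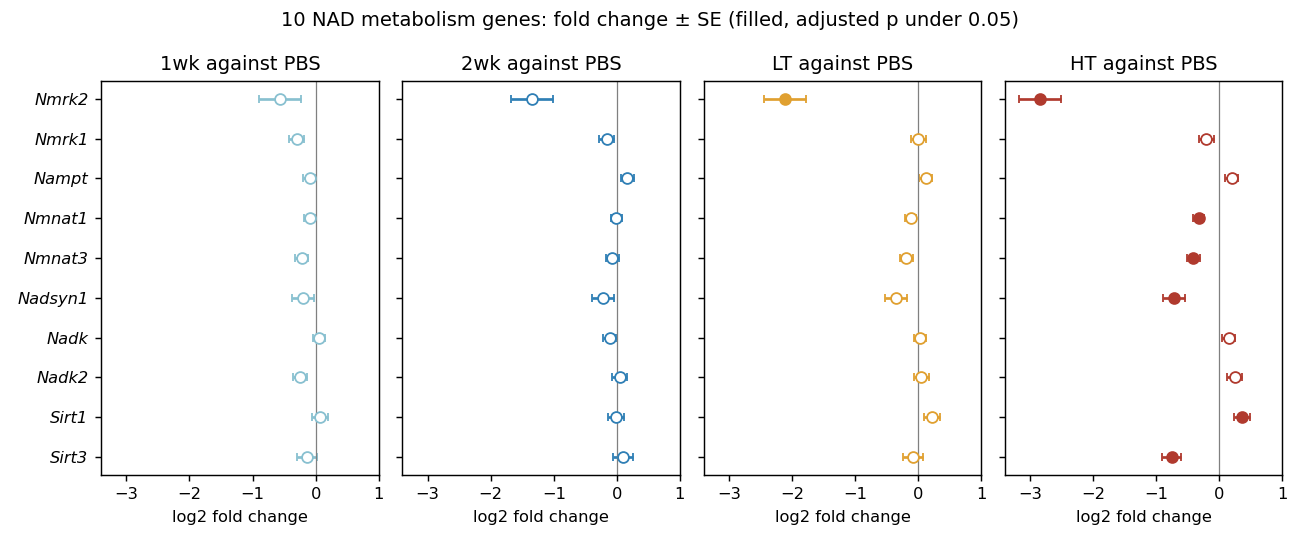
Log2 fold change with SE of the 10 genes in each tumor group against PBS, 8 mice per group, filled where the limma adjusted p was under 0.05. Nmrk2 moves from -0.57 at 1wk to -2.84 in HT, while the other genes in HT lie between -0.76 and 0.36.

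Both NMNAT genes of the set, whose enzymes make NAD from the mononucleotide, fell in HT. Nmnat1, the nuclear enzyme, had 310.4, 332 and 376 as lowest, median and highest values in PBS and 221, 279 and 306 in HT. The ranges did not meet but lay close, with the highest HT mouse at 306 and the lowest PBS mouse at 310.4. Its log2 fold change was -0.33 (SE 0.09, adjusted p = 0.00391), and without the 3 mice -0.22 with an adjusted p of 0.0909. Nmnat3, the mitochondrial enzyme, had 220.2, 274 and 315 in PBS and 127, 214 and 256 in HT, and these ranges overlapped. Its log2 fold change was -0.41 (SE 0.10, adjusted p = 0.00257).

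Nadsyn1, the amidating enzyme of the nicotinic acid route, had the lowest level of the 10 per kilobase. The lowest, median and highest values were 31.5, 36.7 and 45.6 in PBS and 13.8, 23.7 and 34.5 in HT, and HT mouse C60 at 34.5 was the only 1 inside the PBS range. The log2 fold change in HT was -0.72 (SE 0.17, adjusted p = 0.0017). HT mice had an estimated 4.96 (C55) to 15.9 reads of Nadsyn1 and LT mice 5.96 to 22.9, against 53.7 to 87.6 in PBS. The HT and LT values are therefore imprecise.

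The NAD kinases were not called in any comparison with PBS. Nadk, the cytosolic kinase, averaged 369 ± 39.1 in PBS and 411 ± 70.7 in HT (SD, n = 8), a log2 fold change of 0.15 (adjusted p = 0.251). Nadk2, the mitochondrial kinase, averaged 618 ± 49.8 in PBS and 738 ± 110.1 in HT, a log2 fold change of 0.25 (adjusted p = 0.102). Nadk2 passed after scaling to the same total (0.32, adjusted p = 0.0163) and without HT mouse C38 (0.30, adjusted p = 0.0489). Its lowest value in any mouse was 276 in 1wk mouse C17, which also had the lowest 1wk values of Nampt, Nmnat1, Nmnat3 and Sirt3 and a macrophage marker sum of 13249, the highest of all mice. Nadk2 was higher in HT than in 1wk mice (0.49, adjusted p = 0.002), also without the 3 mice (0.45, adjusted p = 0.0225). Nadk was higher in HT than in 2wk mice (0.26, adjusted p = 0.0401), and that call was lost without the 3 mice (0.15, adjusted p = 0.377) and without any 1 of C30, C31, C33, C38, C54 or C55 (0.20 to 0.26). The call was also lost with quantile normalization (limma adjusted p = 0.0537), library weights (0.208), the 2 groups alone (0.109) and thinning to equal reads (0.0683).

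The 2 sirtuins, NAD-consuming deacylases, moved in opposite directions in HT. Sirt3, the main mitochondrial deacetylase, had 215, 263 and 299 as lowest, median and highest values in PBS and 74.6, 186 and 206 in HT. No HT mouse reached the lowest PBS mouse. The log2 fold change was -0.76 (SE 0.15, adjusted p = 0.000366), or 0.592 times the PBS level, and -0.42 (adjusted p = 0.0214) without the 3 mice. Compared to LT, where the values ran from 192 to 317, Sirt3 was lower by a log2 fold change of -0.67 (adjusted p = 0.0027). It was the only 1 of the 10 called between HT and LT, where 20.4% of all genes were called, and without the 3 mice it was not (-0.34, adjusted p = 0.131).

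Sirt1, the nuclear deacetylase, had 137, 161 and 196 in PBS and 148, 191 and 318 in HT. Mice C54 and C55, at 306 and 318, were above every other mouse, and 6 of 8 HT mice lay at 233 or less. The log2 fold change was 0.36 (SE 0.13, adjusted p = 0.0282), and without the 3 mice 0.14 (adjusted p = 0.444). Leaving out C54 alone (0.28, adjusted p = 0.0919), C55 alone (0.27, adjusted p = 0.0955), C62 alone (0.33, adjusted p = 0.051) or PBS mouse C8 (0.32, adjusted p = 0.0582) or C9 (0.34, adjusted p = 0.0504) also ended the call. Per base, the ratio of Sirt3 to Sirt1 was 4.78 ± 0.955 in PBS and 2.49 ± 1.2 in HT.

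Within groups the genes varied together to different degrees. Over 40 mice, the deviations of Nmrk2 and Sirt1 from their group means had a Pearson r of -0.646, and -0.541 without C48, C54, C55 and C17. Nmrk2 and Sirt3 had an r of 0.43, which was 0.157 without those 4 mice. Nmnat1 and Sirt3 had 0.667 and 0.527, and Nampt and Nadk2 0.638 and 0.541. The points share libraries, depth and the scaling of each library, and these values are descriptions.

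**Figure D4:**
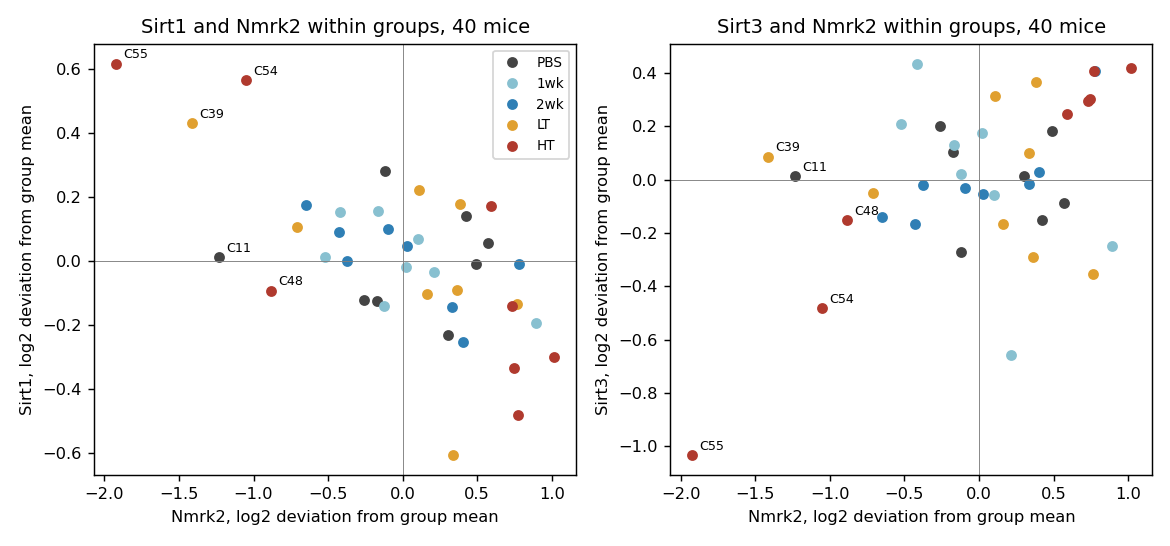
Log2 deviation from the group mean of Sirt1 (left) and Sirt3 (right) against that of Nmrk2, 1 point per mouse, 40 mice coloured by group. Sirt1 runs against Nmrk2 (r = -0.646), with HT mice C54 and C55 and LT mouse C39 at the upper left, and in the Sirt3 panel (r = 0.43) C54 and C55 lie at the lower left.

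Among 10043 genes with a mean value of at least 50, the 5 with the highest r to Nmrk2 over 40 mice were Aimp2 (0.827), Col6a2 (0.818), Tab1 (0.794), Isoc2b (0.791) and Psmb10 (0.782). Aimp2 encodes a scaffold of the tRNA synthetase complex, Col6a2 a chain of collagen VI, Tab1 an activator of the kinase TAK1 and Psmb10 an immunoproteasome subunit. By deviations from group means the 5 were Rccd1 (0.784), Lrrfip1 (0.777), Ppat (0.752), Gm30794 (0.746) and Angptl2 (0.742). Ppat encodes the first enzyme of purine synthesis and Angptl2 a secreted angiopoietin-like protein.

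Other genes of NAD metabolism were counted from 8 lists with 59 genes, of which 45 were in the table. In HT 4 were higher and 17 lower than in PBS, with a median log2 fold change of -0.23 against 0.00 over all genes and 16.5% of all genes called each way. Without C48, C54 and C55 the counts were 2 and 8, with 16.1% of all genes called in either direction. At 1wk 2 were lower and 0 higher (0.525% of all genes called). At 2wk 0 were called in either direction (0.0795% of all genes), and in LT 2 were lower and 0 higher (0.636% of all genes called).

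In the lists of NAD synthesis, the kynurenine side branch, and uptake and transport, Afmid, Kyat1, Kyat3 and Slc29a2 were lower in HT. These were 4 of 11 genes, against 16.5% of all genes called lower, and not all 11 act in NAD supply. Afmid, an enzyme of tryptophan breakdown to kynurenine, was at -0.47 (adjusted p = 0.0255) and lost the call without the 3 mice (-0.16, adjusted p = 0.42). Naprt, which starts the route from nicotinic acid, averaged 54.4 ± 6.5 in PBS and 42.8 ± 13.3 in HT (log2 fold change -0.40, adjusted p = 0.0512). Slc25a51, the mitochondrial NAD carrier, had a log2 fold change of 0.03 in HT (adjusted p = 0.766), with an SE of 0.06. Of 6 uptake and transport genes only Slc29a2, an equilibrative nucleoside transporter, was called (97 ± 9.3 in PBS, 60.9 ± 19.5 in HT, -0.72, adjusted p = 0.000323). Of the 3 kynurenine side branch genes, Kyat1 and Kyat3 were lower in HT. Kyat1, an aminotransferase that makes kynurenic acid, was at -0.73 (adjusted p = 0.00117) and lost the call without the 3 mice (-0.32, adjusted p = 0.0553).

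On the consuming side Cd38, the main NAD glycohydrolase, rose in HT. It had 30.6 to 73.5 in PBS and 83.3 to 157 in HT, and these ranges did not meet. The log2 fold change was 1.14 (SE 0.18, adjusted p = 1.79e-05), and 1.1 (adjusted p = 0.000514) without the 3 mice. CD38 is carried by leukocytes, and 5 of 5 neutrophil and 5 of 12 macrophage markers in the table were also higher in HT, against 16.5% of all genes. The part of those cells in the rise of Cd38 was not tested. Nnmt, which methylates nicotinamide, averaged 24.3 ± 5.9 in PBS and 46.5 ± 28.8 in HT and did not pass (0.76, adjusted p = 0.0538).

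Of 18 PARPs and ADP-ribosyltransferases 9 were lower and 2, Art5 and Tnks, higher in HT, with 16.5% of all genes called each way. The median of the list was -0.25. Without C48, C54 and C55 3 were lower and 1 higher, and Tnks was not called (0.16, adjusted p = 0.45). Parp10 and Parp14, mono-ADP-ribosyltransferases known to be induced by interferon, were also the 2 called lower at 1wk (-0.67, adjusted p = 0.0454, and -1.04, adjusted p = 0.00112) and in LT (-0.65, adjusted p = 0.049, and -0.86, adjusted p = 0.0174). Of all genes 0.525% were called at 1wk and 0.636% in LT. In HT Parp10 was at -1.16 (adjusted p = 3.24e-06) and Parp14 at -0.85 (adjusted p = 0.000929). Parp8 (-0.67), Parp9 (-0.57) and Parp12 (-0.56) were lower in HT as well, and these 3 were not called without C48, C54 and C55. Parp1, the main nuclear PARP, was at -0.26 (adjusted p = 0.0472) and at -0.09 without the 3 mice. Art5, an arginine-specific ADP-ribosyltransferase, rose from 411 ± 61.8 to 615 ± 149 (0.56, adjusted p = 0.00251).

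Of the remaining genes, Sirt5 was the only 1 of the 5 other sirtuins called in HT (-0.55, adjusted p = 0.00349), a call lost without the 3 mice (-0.31, adjusted p = 0.147), and Sirt2, the cytosolic sirtuin, was at 0.10 (adjusted p = 0.265). Noct, nocturnin, a clock-controlled NADPH phosphatase, averaged 517 ± 171 in PBS and 234 ± 151 in HT (-1.34, adjusted p = 0.000626). Without the 3 mice it was at -0.76 (adjusted p = 0.043). Nnt, which encodes the mitochondrial transhydrogenase, was at -0.12 (adjusted p = 0.718). Only its mRNA was measured, so the values do not show whether these muscles held working enzyme.

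**Figure D5:**
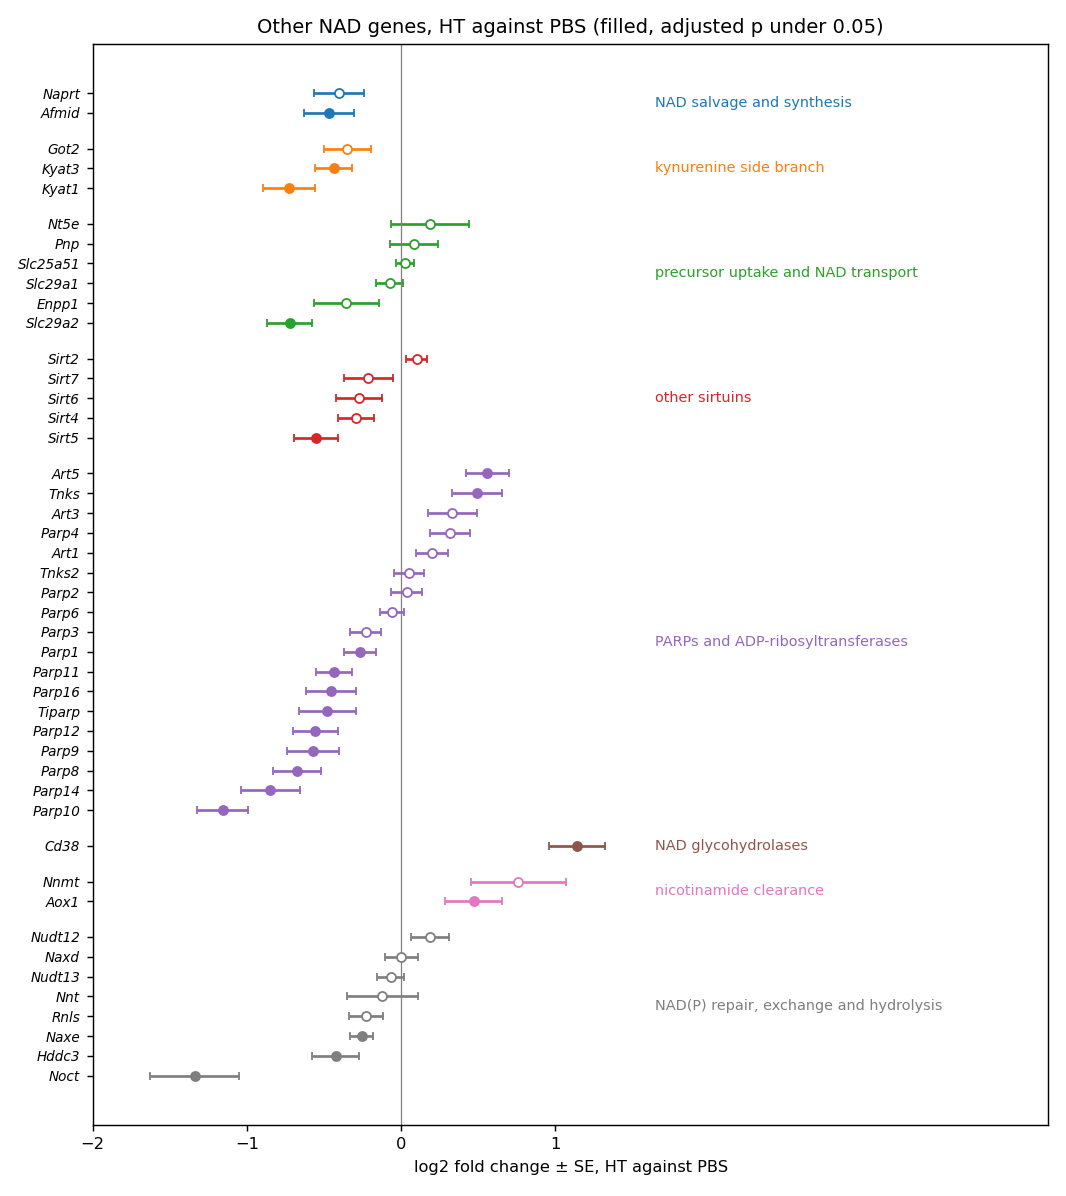
Log2 fold change with SE, HT against PBS, of the 45 other NAD genes in the table, grouped by list and filled where the limma adjusted p was under 0.05. Cd38 lies furthest to the right at 1.14 and Noct furthest to the left at -1.34.

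Genes of AMPK subunits and PPAR regulators were called in both directions in HT. Only their mRNA was measured, and their part in the Nmrk2 values was not tested. Of 11 AMPK subunits and PPAR regulators, Prkaa1 and Prkaa2, the catalytic subunits, were higher in HT and 4 were lower, with 16.5% of all genes called each way. Without C48, C54 and C55 1 was higher and 1 lower, and Prkaa1 was not called (0.21, adjusted p = 0.148). Prkag3, the regulatory subunit of fast fibres, averaged 3066 ± 669 in PBS and 1439.7 ± 916 in HT (-1.48, adjusted p = 0.000735), and was at -0.72 (adjusted p = 0.0155) without the 3 mice. Ppargc1b, a coactivator of mitochondrial genes, was at -0.88 (adjusted p = 0.0354) and at -0.10 (adjusted p = 0.772) without them. Ppara was not called against PBS (-0.75, adjusted p = 0.0793) and was lower than in LT (-0.97, adjusted p = 0.0358), a call lost without the 3 mice (-0.54, adjusted p = 0.439). The integrin chains bound by NMRK2, encoded by Itga7 and Itgb1, were not called in any of the 4 comparisons with PBS.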

How the data were processed

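RNA of the gastrocnemius was sequenced by the authors as polyadenylated, stranded libraries with 50 base reads from 1 end. According to the paper's methods and the submitters' processing notes, the authors aligned reads with STAR 2.7.8a, quantified genes in Partek Flow, removed genes under 30 reads and scaled libraries by the DESeq2 median ratio. Builds mm10 and mm39 are both listed, and the coordinates in the table matched GRCm39. The deposited signal is therefore an estimated count per gene divided by a library size factor, although its table is named for raw counts. Of 502920 values 99.6% were not whole, so they were not tested as counts. Tables of the authors' own comparisons, with their fold changes and p-values, were not used.

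The limma package (version 3.58.1, R 4.3.3) was fitted to log2(value + 1) with a trend, over 12573 genes, with all 5 groups in 1 fit and 10 group pairs compared. A call needed an adjusted p (Benjamini-Hochberg) under 0.05, and fold changes are on the log2(value + 1) scale, which understates changes of low genes. The fit was tested on simulated data. Nmrk2 was also given exact two-sided permutation tests over 12870 splits of 8 against 8 mice, whose smallest possible p is 0.000155. Depth was estimated from the value that 1 read adds in each library, which was 0.42 to 0.739 in PBS, 1wk and 2wk and 1.59 to 3.38 in LT and HT. Levels of different genes were compared per kilobase of the canonical GENCODE vM39 transcript. Each mouse is a separate animal and the sources used here name no batch. The paper states that libraries were sequenced in pools, and the sources used here do not give the pool of each mouse. No paired analysis was possible because the groups share no mouse number.

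Genes named are all 10 of the set, up to 12 genes of the NAD and regulator lists with the largest change among those called in LT or HT, Naprt, Nnmt, Cd38, Parp1, Sirt2, Nnt, Slc25a51 and Ppara whatever their values, and the 5 genes most like Nmrk2 by each of 2 correlations. Afmid, Kyat3, Tnks, Sirt5, Prkaa1, Prkaa2, Itga7 and Itgb1 were named after their values were seen. The set, the lists and the tests were chosen with earlier results of these data known. Alternatives were other pseudocounts, a filter on low values, quantile or total scaling, library weights, fits of 2 groups alone, thinning to equal reads, leaving out each mouse, and leaving out HT mice C48, C54 and C55, which was chosen after seeing the data. These 3 mice held the lowest HT values of Nmrk2 and Sirt3, so leaving them out raises HT for both genes by construction. C54 and C55 also held the 2 lowest HT values of Nmnat1 and Nadsyn1 and the 2 highest of Sirt1 and Nadk. Leaving them out moves HT toward PBS for these genes by construction too. The fit also has fewer HT mice, so a call lost in it is not separate evidence.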

Additional observations from a re-analysis of the deposited data

Results flagged for a closer look

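In 2 of 50 sets of 8 mice (10 genes in 5 groups) a single mouse stood far from the other 7, and chance gives about 1 in 20. Nmrk2 in 1wk mouse C15 was 1909.5 and the next mouse was at 1193, a gap of 0.601 of the group's range. Nmrk2 at 1wk was not called with any mouse left out, C15 included (limma adjusted p 0.404 to 0.823). Sirt3 in 2wk mouse C32 was 370.1 and the next mouse at 284, a gap of 0.706 of the range.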

How the results depend on the processing

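Against PBS, Nmrk2 kept its direction and passed in LT (log2 fold change -2.17 to -2.07) and HT (-2.92 to -2.07) under all 10 alternatives. These include the exact permutation test of Nmrk2 alone. It also kept its call with any mouse left out (-2.28 to -1.90 in LT and -3.02 to -2.57 in HT). Of the other calls in HT, Nmnat3, Nadsyn1 and Sirt3 held under all 9 alternatives. In HT against LT Nmrk2 was not called under any of 10 alternatives (-0.82 to 0.04, the latter without the 3 HT mice lowest in Nmrk2). The number of the 10 genes called in HT against PBS was 4 to 8, and 5 to 7 with a mouse left out. The share of all genes called also moved between the alternatives, so these counts are not read as a result about the 10 genes alone. Causes of the changes below were not tested.

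Nmrk2 in 2wk against PBS was called at -1.34 with library weights (limma adjusted p = 0.00119), with these groups alone (0.0344) and without C48, C54 and C55 (0.0105). The count of the 10 genes there was 1 in those 3 fits. Of all genes 1.92%, 0.0954% and 0.111% were called in them, against 0.0795% in the main result. With a mouse left out Nmrk2 ranged from -1.51 to -1.25 and was called only without C11. The exact permutation test of Nmrk2 alone gave p = 0.000622, which is not adjusted over all genes and is no such call. The unadjusted exact permutation test also passed Nmrk2 in 1wk against PBS (-0.57, p = 0.0497), 2wk against 1wk (-0.77, p = 0.00482) and LT against 2wk (-0.77, p = 0.0176). Thinning gave -1.48 for LT against 1wk (adjusted p = 0.0524, 0 of the 10 called), and leaving out a mouse gave -1.65 to -1.34 and 0 to 1, with the call lost without C14, C15, C16, C17, C18, C39, C42, C51 or C57. In HT against 2wk Nmrk2 was at -0.73 (adjusted p = 0.106) without the 3 mice.

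Counts out of 10 fell with library weights, with the 2 groups alone and without the 3 mice to 0, 0 and 0 in HT against LT (1 in the main result), 3, 2 and 2 in HT against 1wk (6) and 4, 3 and 1 in HT against 2wk (7). All genes fell too, to 2.86%, 4.17% and 3.18% (20.4%), to 17.9%, 11.9% and 9.85% (29.2%) and to 16.8%, 17% and 6.7% (28.3%). With a mouse left out the counts out of 10 were 1 to 3, 3 to 7 and 3 to 7, and the lowest of the last pair came without C54 or C55. These ranges are given without the share of all genes and are not read as a result about the 10 genes. Nmrk2 in HT against LT ranged from -0.94 to -0.46 and was called without C39 (-0.94) or C37 (-0.88). Nmnat1 in HT against LT was called without C42, C37, C38 or C46 (-0.27 to -0.24).

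Of 45 other NAD genes 13 were called in HT against PBS with library weights and 10 without the 3 mice (23.6% and 16.1% of all genes, and 21 in the main result, 15 to 25 with a mouse left out). In HT against LT the counts were 3 with library weights, 4 with the 2 groups alone and 2 without the 3 mice, with the shares of all genes above (10 in the main result, 6 to 13 with a mouse left out, lowest without C54 or C55). Sirt1 in HT was not called with library weights (0.20), the 2 groups alone (0.36, adjusted p = 0.098) or after thinning (0.25), and Sirt3 in HT against LT not with library weights (-0.42) or the 2 groups alone (-0.67, adjusted p = 0.0527). Scaling to the same total moved the median of all genes by 0.07 in HT against PBS and raised the calls to 8 of 10. That shift acts on all genes, so the count of 8 is not read as a result about the set. The counts with a mouse left out are given without the share of all genes and are not read as one either. Depth limits the low genes of LT and HT, where 1 read is worth 1.59 to 3.38 of the value.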
